A study of Mus musculus with 10 samples.

Results

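The developmental transcription factors of 11 families were examined in sperm chromatin of mice fed 2 diets. The 164 members were all protein-coding genes of GENCODE M21 on chromosomes 1 to 19 whose names belong to the Hox clusters or to the Pax, Sox, Tbx, Gata, Lhx, sine oculis, Irx, Dlx, Nkx or Fox families, out of 20807 protein-coding genes on these chromosomes. They comprised 41 Fox, 39 Hox, 18 Sox, 14 Nkx, 12 Tbx, 9 Pax, 8 Lhx, 6 Dlx, 6 Irx, 6 sine oculis genes and 5 Gata genes. The members were selected by gene name.

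Accessible DNA was mapped by ATAC-seq, an assay in which a transposase cuts open chromatin and tags the fragments for sequencing. Mature sperm from the cauda epididymis came from wild-type C57BL/6JRccHsd founder males, with 1 library per mouse. The F0 CD males (n = 6) received chow with 14% protein, and the F0 WD males (n = 4) a Western diet with 40% of kcal from fat and 43% from carbohydrate, both for 6 months. These group sizes follow the sample titles, whereas the protocol text in the labels gives 4 and 6.

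Each library is represented by its own list of peaks, intervals with more reads than the local background. The lists held 13601 to 29532 peaks in F0 CD and 13366 to 19526 in F0 WD. The weakest peak of a library rested on 9 to 13 reads, over a lowest background of 2.11 to 4.42 reads, so a missing peak does not show closed chromatin. A weak signal in all sperm and a strong one in few sperm cannot be told apart in such bulk libraries.

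These families act as DNA-binding regulators of the embryo. Hox proteins set positional identity along the body axis and are encoded in 4 clusters, whereas Pax, Sox, Tbx, Gata, Lhx, sine oculis, Irx, Dlx, Nkx and Fox factors direct the formation of organs and cell types. In sperm, protamines replace most histones, and promoters of developmental regulators are known among the sites that keep nucleosomes with active and repressive histone marks.

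Because most reproducible peaks of the members lay over short repeats, the DNA under the summits is shown first. The regions below are 7 of the 8 found in the most libraries, where Tbx5 was taken from a tie of 3 regions in 7 libraries by its median rank in the peak lists, and each line gives the 61 bases centred on the strongest summit, read from the plus strand of GRCm38 (mm10). Capitals mark CA or TG runs of 4 units or more.
Sox5 intron, 10 libraries, chr6:144019864-144019924: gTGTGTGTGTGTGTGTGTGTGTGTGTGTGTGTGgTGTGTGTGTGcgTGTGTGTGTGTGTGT
Sox5 intron, 9 libraries, chr6:144016149-144016209: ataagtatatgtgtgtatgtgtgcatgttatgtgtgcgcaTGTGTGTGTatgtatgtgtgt
Sox5 intron, 9 libraries, chr6:144183762-144183822: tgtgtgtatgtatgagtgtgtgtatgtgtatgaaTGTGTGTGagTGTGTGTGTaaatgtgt
Sox5 intron, 8 libraries, chr6:144399892-144399952: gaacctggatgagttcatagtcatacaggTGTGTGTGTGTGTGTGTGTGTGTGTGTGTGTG
Tbx4 upstream flank, 8 libraries, chr11:85883043-85883103: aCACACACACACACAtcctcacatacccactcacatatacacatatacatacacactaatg
Sox14 flank, 8 libraries, chr9:99880909-99880969: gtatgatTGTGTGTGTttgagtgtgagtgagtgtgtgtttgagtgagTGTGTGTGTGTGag
Tbx5 intron, 7 libraries, chr5:119848774-119848834: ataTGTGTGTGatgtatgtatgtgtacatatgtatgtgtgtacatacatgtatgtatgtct
These 7 stretches contain CA or TG runs, and repeat masking covered every base of 6 of them and 82.0% of the bases in the Sox5 stretch at chr6:144399892-144399952. Not every frequent region lies in repeats, since a Sox5 region of the same tie, chr6:144535254-144535761, had 2.76% of repeat-masked bases. It held no run of 10 units. The same is true of the listed regions of Sox5 at chr6:144015899-144016398 and of Tbx5, whose runs are shorter.

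The promoters of the members were rarely marked by a peak. A promoter window was defined as 3 kb around any annotated start site of the gene. In the 6 F0 CD libraries 7, 9, 21, 15, 12 and 9 members had a promoter peak, and in the 4 F0 WD libraries 14, 7, 10 and 10. The F0 CD mean was 12.2 ± 5.15 members (SD, n = 6) and the F0 WD mean 10.2 ± 2.87 (SD, n = 4), and the F0 WD values lay within the range of the F0 CD values.

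As a share, 4.27% to 12.8% of the members had a promoter peak in an F0 CD library and 4.27% to 8.54% in an F0 WD library. Among the 20643 other protein-coding genes the share was 6.91% to 13.4% and 7.38% to 9.42%. Members were below the other genes in 7 of 10 libraries and above them in F0 CD replicates 3, 4 and 5. This comparison is a description, since the genes of a library are not replicates.

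**Figure D1:**
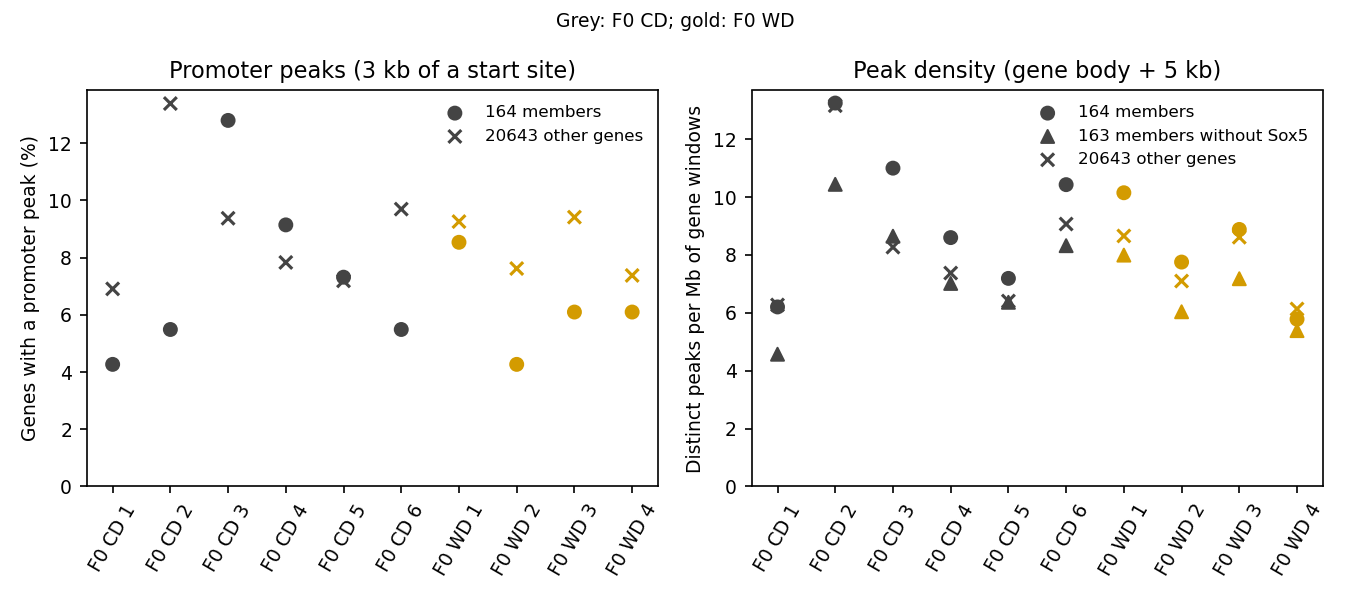
Left, percentage of genes with a promoter peak in each library. Right, distinct peaks per Mb of gene windows. Circles are the 164 members, triangles the members without Sox5 and crosses the 20643 other genes, in grey for F0 CD and gold for F0 WD. Without Sox5 the density of the members was below that of the other genes in 9 of 10 libraries.

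Few members had a promoter peak in several mice, counted whether or not the peaks lay at the same place. No promoter peak was found for 95 members (57.9%, against 56.7% of the other genes), and 43 members had one in a single library. In at least 2 libraries 26 members had a promoter peak (15.9% against 19.6%), in at least 5 libraries Foxp1 and Foxp4 (1.22% against 3.58%), and in all 10 libraries none, against 69 of the other genes.

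The promoters of the members were nonetheless rich in CpG. Within 500 bp of the start site the median GC content was 59.5% and the CpG ratio, observed over expected, 0.686, against 55.0% and 0.566 for the other genes. The 26 members with a promoter peak in 2 or more libraries had a median CpG ratio of 0.677, and the 95 without any promoter peak 0.695. Both values were above that of the other genes.

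Peaks in promoter windows were seldom at the start site. Of 122 pairs of a member and a promoter peak, the summit lay within 500 bp of the start site in 19 pairs (15.6%), against 18.6% for the other genes. The median distance was 1481 bp for the members and 1460 bp for the other genes.

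**Figure D2:**
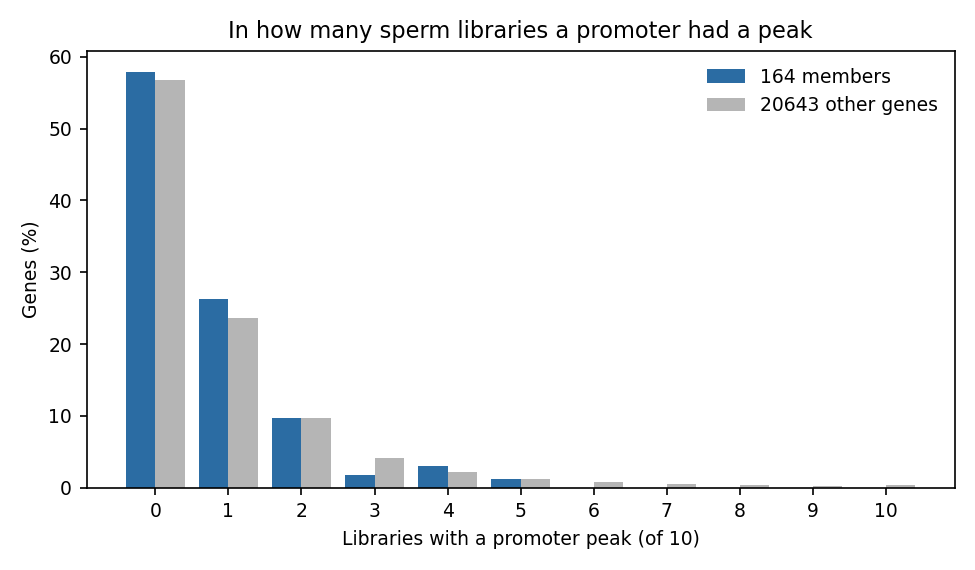
Percentage of genes by the number of libraries, out of 10, in which a peak lay within 3 kb of a start site. Blue bars are the 164 members and grey bars the 20643 other genes. No member had a promoter peak in more than 5 libraries.

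Beyond the promoters, the gene bodies extended by 5 kb were examined, together called the gene window. The members' windows held 633 distinct peaks, summed over the libraries. In F0 CD libraries there were 44, 94, 78, 61, 51 and 74, and in F0 WD libraries 72, 55, 63 and 41. The order followed the length of the peak lists in part, since F0 CD replicate 2 had the most peaks and F0 WD replicate 4 the fewest in both.

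Peak density per Mb of window was 8.92 ± 2.32 for the members and 8.11 ± 2.08 for the other genes (SD over 10 libraries). Members were above the other genes in 8 of 10 libraries. A single gene set this order, because without Sox5 the density was 7.20 ± 1.73 and lay below that of the other genes in 9 of 10 libraries.

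Counted by gene, members with at least 1 peak in the window were fewer than among other genes in all 10 libraries (12.2% to 23.2% against 22.7% to 36.2%). The windows of the members were also shorter, with a median of 16.1 kb against 27.8 kb. The part of window length in this difference was not tested. A peak in the window was found in all 10 libraries for Sox5, Foxn3, Pax5 and Tbx5.

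Peaks of the members were of ordinary strength. Between 9 and 32 reads lay at their summits, the median of 16 being equal to that of all peaks, with a median enrichment over background of 3.76-fold against 3.87-fold. The strongest member peak reached 7.19-fold, whereas the strongest of all peaks reached 45.3-fold.

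The Hox clusters were sparse in peaks. Together the 39 genes held 22 distinct peaks over the 10 libraries, with 0, 2, 1, 1, 6 and 1 in F0 CD and 3, 3, 4 and 1 in F0 WD. The density was 4.87 ± 4.02 per Mb (SD over 10 libraries), with 8.34 in Hoxc, 5.29 in Hoxa, 4.31 in Hoxb and 0.978 in Hoxd.

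Hoxd, which patterns limbs and the posterior body, held a single peak, in F0 CD replicate 5 alone, and 7 of its 9 genes had no peak anywhere. In all, 18 Hox genes had none, namely Hoxa5, Hoxa6, Hoxa7, Hoxb2, Hoxb5, Hoxb6, Hoxb7, Hoxb8, Hoxc6, Hoxc8, Hoxc11, Hoxd1, Hoxd3, Hoxd4, Hoxd8, Hoxd9, Hoxd10 and Hoxd13. No Hox gene had a promoter peak in 5 libraries or more. The most frequent was Hoxc4, with a promoter peak in F0 CD replicates 2 and 5 and F0 WD replicates 2 and 3, at 4 separate places.

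Hoxa10, which acts in the reproductive tract, had promoter peaks in F0 CD replicates 3 and 5 alone, again at separate places. Reproducible regions in the Hox clusters were limited to Hoxb13 and Hoxc13, with 1 region each in 2 libraries.

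The Sox family had the highest density, with 12.7 ± 3.84 peaks per Mb (SD over 10 libraries). Its 235 peaks lay mostly in Sox5, a regulator of cartilage and neuron formation, and without Sox5 the density was 4.86 ± 1.92. The libraries held 18, 37, 30, 21, 19 and 27 Sox peaks in F0 CD and 28, 21, 22 and 12 in F0 WD. Sox2, Sox15, Sox17 and Sox18 had no peak in any library, and Sox9, which directs testis and cartilage formation, had a promoter peak in 3.

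The Fox family held 205 peaks at 7.83 ± 1.89 per Mb, with 18, 29, 22, 22, 16 and 26 in F0 CD and 24, 17, 18 and 13 in F0 WD. Its long genes carried most of them, led by Foxp1 with 49 peaks and Foxn3 with 39. No peak was found for 11 Fox genes, among them Foxa1, Foxa3, Foxb1, Foxb2, Foxc2, Foxf2, Foxh1, Foxi2, Foxi3 and Foxs1. Foxm1, a driver of cell division, had promoter peaks in F0 CD replicate 1 and F0 WD replicate 3.

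Foxi1 and Foxo3 were the other Fox genes with a frequent promoter peak besides Foxn3, Foxp1 and Foxp4. Foxi1, needed for the inner ear and for proton-secreting cells of the epididymis, had one in 4 libraries, 2 of each diet. Foxo3, a target of insulin signalling, had one in F0 CD replicates 2, 3 and 4 alone (Fisher's exact test, unadjusted p = 0.20).

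Pax genes held 60 peaks at 8.66 ± 4.08 per Mb, and 11 of them came from F0 CD replicate 2. Pax5, the B-cell factor, accounted for 25. Pax1, which acts in the vertebral column, had promoter peaks in F0 CD replicates 3, 4 and 5 and none in F0 WD (Fisher's exact test, unadjusted p = 0.20), and Pax9 had no peak. Tbx genes held 47 peaks at 9.69 ± 3.64 per Mb, mainly at Tbx5, which forms the heart and forelimb, and Tbx4, which forms the hindlimb. Tbx15 had a promoter peak in 2 libraries, and Tbx1, Tbx3, Tbx6 and Tbx20 had no peak.

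The smaller families held few peaks. Lhx genes had 24 peaks, of which 6 were in F0 WD replicate 4, and Lhx6, an interneuron factor, had a promoter peak in 4 libraries, 2 of each diet. Nkx genes had 16 and Gata genes 11. Nkx2-1, the thyroid and lung factor, had promoter peaks in F0 WD replicates 2 and 3 alone (Fisher's exact test, unadjusted p = 0.13), and Gata2, a blood cell factor, in 1 library of each diet.

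Irx genes held 6 peaks, Dlx genes 5 and the sine oculis genes, such as Six4, 2. Six4 and Irx6 each had a promoter peak in 2 F0 CD libraries, and Dlx3 in F0 CD replicate 5 alone. All 5 Dlx and both sine oculis peaks were from F0 CD libraries, which held 62.4% of the peaks in the windows of all protein-coding genes. Among the members of these small families, no peak was found for Six2, Six3, Six5, Six6, Dlx1, Dlx4, Dlx6, Irx1, Irx3, Lhx5, Nkx2-4, Nkx2-5, Nkx3-2 and Nkx6-2, whereas all 5 Gata genes had at least 1. In total 53 members (32.3%) had no peak in their window, against 26.8% of the other genes.

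**Figure D3:**
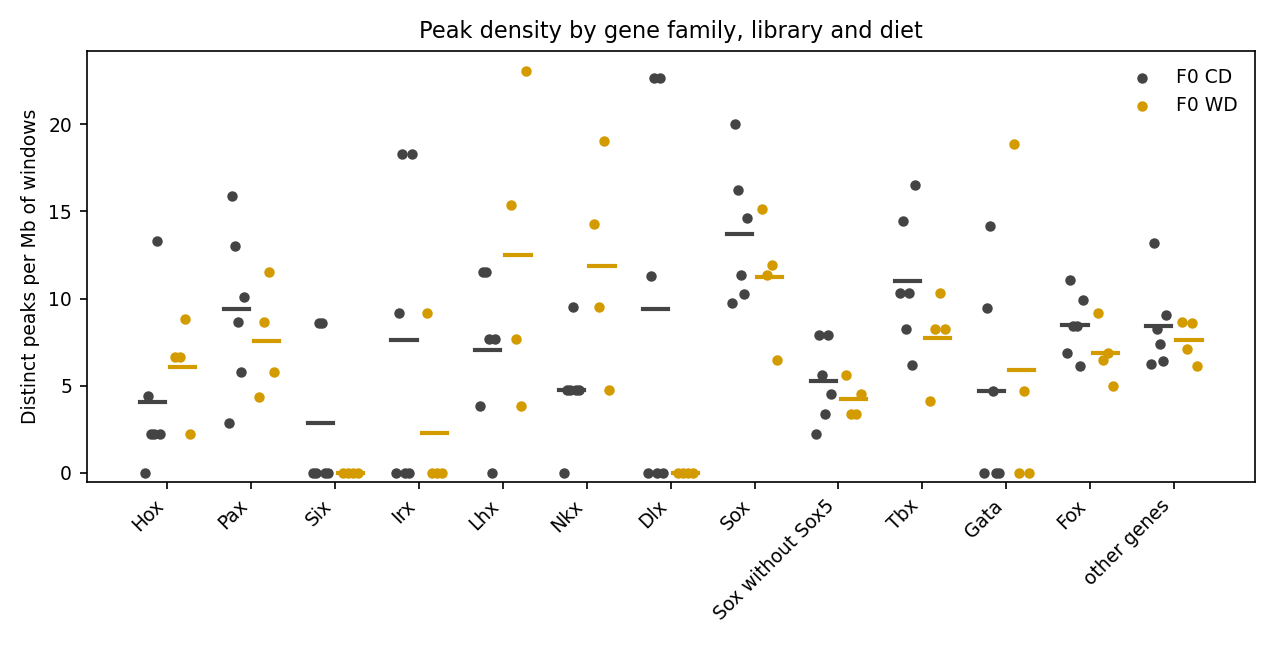
Distinct peaks per Mb of gene windows by family. Each point is 1 library, grey for F0 CD (n = 6) and gold for F0 WD (n = 4), and bars are the group means. The ranges of the 2 diets overlapped in each family, and all 4 F0 WD libraries were at 0 for the Dlx and the sine oculis genes.

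Sox5 stood apart from the other members. The gene lies at chr6:143828425-144781977 on the minus strand, and its window of 963.6 kb held 16, 30, 25, 18, 12 and 23 peaks in F0 CD and 23, 18, 19 and 8 in F0 WD. The means were 20.7 ± 6.56 (SD, n = 6) and 17.0 ± 6.38 (SD, n = 4), and the groups overlapped (exact permutation test, unadjusted p = 0.42). These 192 peaks made up 30.3% of all member peaks, ranging from 19.5% to 36.4% between libraries.

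Sox5 ranked higher by peaks than by length. By summed peaks it was 6th of 20807 genes and by window length 60th. With 19.9 peaks per Mb and library it ranked 4th of the 225 genes with a window of at least 500 kb, whose median was 6.04. Among the other members with windows of that length, Foxp1 had 8.07 peaks per Mb, Foxp2 3.81 and Sox6 2.42.

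The window of Sox5 also holds many CA and TG runs. Runs of 10 units or more numbered 162, or 168.1 per Mb against a median of 113.8 over the 225 long genes, which placed it 15th. Foxp1 had 125.1 runs per Mb, Foxp2 87.2 and Sox6 69.2, the same order as their peak density. These are 4 genes, and the relation was not tested.

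The peaks of Sox5 fell repeatedly on the same places. Intervals of different libraries that overlapped were merged, and those found in at least 2 libraries are called consensus regions. Of 85 such regions in member windows 32 were in Sox5, 12 of them in at least 5 libraries and 20 holding a CA or TG run of 10 units or more. The region at chr6:144019664-144020253 was found in all 10 libraries, with 21, 15, 28, 13, 19 and 32 reads at the summit in F0 CD and 22, 14, 12 and 23 in F0 WD.

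That region is intronic and 72558 bp from the nearest start site. A neighbour at chr6:144015899-144016398 was found in 9 libraries, 5 F0 CD and 4 F0 WD. The Sox5 region nearest to a difference between diets, chr6:143987591-143988022, was found in 4 of 6 F0 CD and 0 of 4 F0 WD libraries (Fisher's exact test, unadjusted p = 0.076).

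**Figure D4:**
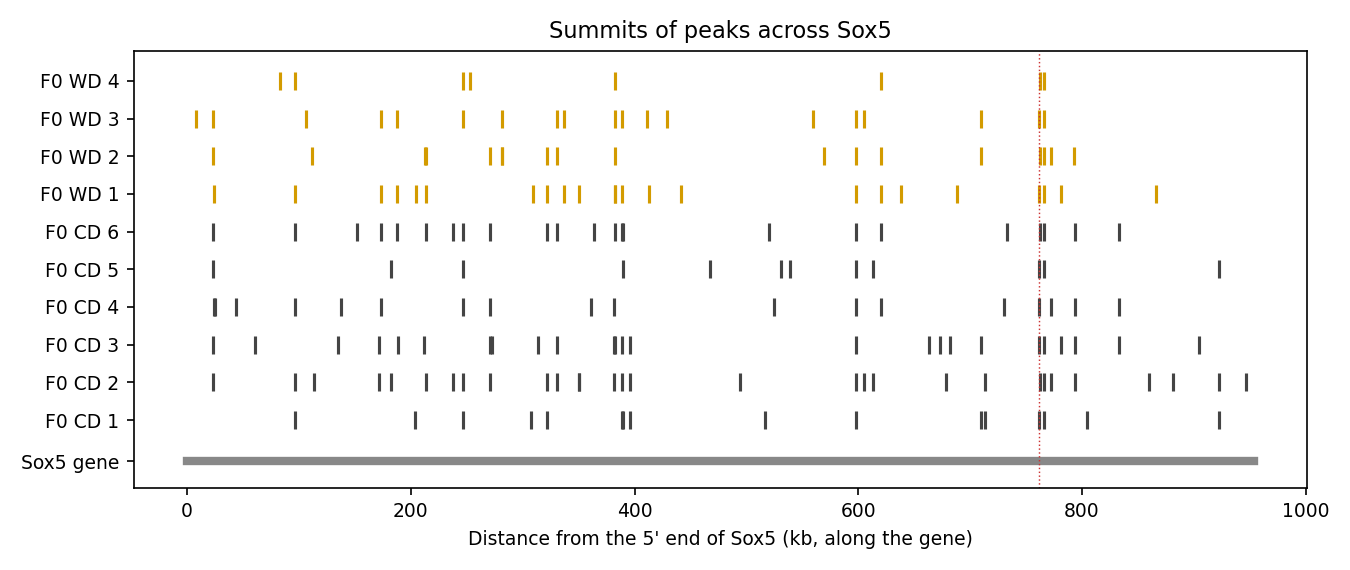
Summits of peaks along Sox5 in each library, as distance from the 5′ end of the gene in kb. Each tick is 1 peak, grey for F0 CD and gold for F0 WD, the bar is the gene, and the dotted line marks the region found in all 10 libraries. Ticks line up between libraries within the introns.

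The other 53 consensus regions were less reproducible. In at least 5 libraries 7 of them (13.2%) were found, against 37.5% in Sox5 and 26.3% of all consensus regions on chromosomes 1 to 19. After Sox5, the Fox family held 26 regions, Pax 8 and Tbx 6, and no consensus region lay in an Irx window. Tbx4 had its region 3050 bp upstream of the start site, found in 5 F0 CD and 3 F0 WD libraries with 13 to 22 reads, and Sox14, a factor of neurons, 4547 bp from its start site, likewise in 5 and 3 libraries.

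Introns held 62 of the 85 regions, promoter windows 14, flanks 7 and exons 2. CA or TG runs of 10 units or more were present in 51 regions (60.0%), against 47.0% of all consensus regions. The median share of repeat-masked bases was 71.1% against 69.9%, and the GC content 46.3% against 46.1%. In promoter windows the median repeat share was 27.1%, and 9 of the 14 regions held a run.

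The presence of a run went with the presence of peaks in members and other genes alike. Of 136 members with a run in the window 59 (43.4%) had a peak there in at least 2 libraries, and of 28 without a run 5 (17.9%). The shares were 58.1% and 20.1% for the other genes. The part of window length in this was not tested. Across the 164 members the summed peaks correlated with window length with a Spearman rho of 0.55, a description over genes that share the same libraries.

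Diet was compared gene by gene for detection in promoter windows, and all 4077 protein-coding genes with a promoter peak in at least 2 libraries were tested by Fisher's exact test. Of all genes tested 0.687% were called higher in F0 WD and 0.442% higher in F0 CD at an unadjusted p under 0.05, and 0 after Benjamini-Hochberg adjustment. Among 26 members tested, 0 were called in the first direction and 1, Foxp1, in the second. The other 138 members had too few promoter peaks to be tested. Of the 26 tested, 16 had a promoter peak in 2 libraries, where the smallest possible unadjusted p is 0.13 (Fisher's exact test). They could not have been called. Requiring at least 3 libraries left 2059 genes and 10 members tested, with the same 46 calls over the whole table. Of the 26, 11 were found in a larger share of F0 WD libraries, 14 in a larger share of F0 CD libraries and 1 equally. Over all 4077 genes tested, the first direction held for 2047 and the second for 1844. Whether the members differ from all genes in this was not tested.

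Foxp1 encodes a forkhead repressor active in lung, heart, lymphocytes and brain. Its promoter windows held 1, 3, 0, 1, 1 and 1 peaks in the F0 CD libraries and none in the 4 F0 WD libraries. Thus 5 of 6 F0 CD libraries and 0 of 4 F0 WD libraries had a promoter peak (Fisher's exact test, unadjusted p = 0.048, adjusted p = 1.0). F0 CD replicate 3, which had no peak in the whole window, was the exception.

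The Foxp1 peaks did not share a single place. The gene, at chr6:98925338-99522721 on the minus strand, has 22 annotated start sites, and the 7 peaks formed 5 separate intervals. F0 CD replicates 1 and 2 shared chr6:99001901-99002144 and replicates 4 and 6 shared chr6:99002752-99003231, both downstream of the same start site. These adjoining intervals, unlike the repeats of Sox5, contained no repeat-masked base, as the 61 bases at their strongest summits show, with no CA or TG run to set in capitals.
Foxp1, F0 CD replicates 1 and 2, chr6:99002009-99002069: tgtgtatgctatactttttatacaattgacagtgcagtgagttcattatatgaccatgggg
Foxp1, F0 CD replicates 4 and 6, chr6:99003031-99003091: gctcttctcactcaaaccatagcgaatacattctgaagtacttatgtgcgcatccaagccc
Each interval was found in 2 of 6 F0 CD and 0 of 4 F0 WD libraries, which was not enough for a call (Fisher's exact test, unadjusted p = 0.47 for each). Summits held 10 to 17 reads, against 9 to 13 for the weakest peaks of these 4 lists. With a promoter window of 1 kb the gene was no longer called, and around the start site of the gene record alone no library had a peak.

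The whole window of Foxp1 was not called. It held 4, 12, 0, 6, 5 and 8 peaks in F0 CD and 2, 2, 9 and 1 in F0 WD, with means of 5.83 ± 4.02 (SD, n = 6) and 3.50 ± 3.70 (SD, n = 4). The ranges overlapped (exact permutation test, unadjusted p = 0.38). The F0 WD mean rested largely on replicate 3 with 9 peaks.

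Foxp4, the related forkhead gene with a promoter peak in 5 libraries, had 0, 0, 1, 1, 1 and 0 promoter peaks in F0 CD and 0, 2, 1 and 0 in F0 WD. One interval at chr17:47875963-47876321, 2632 bp from a start site, was shared by F0 CD replicate 4 and F0 WD replicates 2 and 3. Another at chr17:47888887-47889291, 454 bp from a start site, was shared by F0 CD replicates 3 and 5 alone. Promoter detection was not called (Fisher's exact test, unadjusted p = 1.0).

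In gene bodies outside promoter windows, 8094 genes were tested in the same way. Of these, 0.568% were called higher in F0 WD and 0.432% higher in F0 CD, and 0 after adjustment. Among 44 members tested, 1, Hoxc13, was called higher in F0 WD and 0 higher in F0 CD. The number of peaks in the window was compared by an exact permutation test, with 210 possible assignments of the diets, for 10790 genes, of which 0.769% were called higher in F0 WD and 0.621% higher in F0 CD, again 0 after adjustment. Of 64 members tested, Hoxc13 was again the 1 called higher in F0 WD, and 0 were called higher in F0 CD. Genes with peaks in only 2 libraries could not be called here either. Requiring at least 3 libraries left 25 members tested for bodies and 39 for peak number. The 81 and 150 calls over the whole table stayed the same.

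Hoxc13 controls hair and nail formation. Its window held no peak in the 6 F0 CD libraries and 2, 0, 1 and 1 peaks in F0 WD, where 3 of 4 libraries had at least 1. Detection and peak number gave the same value (Fisher's exact test and exact permutation test, unadjusted p = 0.033 each, adjusted p = 1.0). The lone F0 WD library without a peak was replicate 2.

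The Hoxc13 peaks lay outside the gene at chr15:102921103-102928814, on the plus strand. F0 WD replicates 1 and 4 shared an interval upstream, with summits at -3317 and -3275 bp from the start site and 18 reads in each library. A further peak of replicate 1 and the peak of replicate 3 lay downstream of the gene at separate places, with 14 and 16 reads. The shared interval is shown because it alone recurred, and it carries a long TG run (capitals as above).
Hoxc13 upstream, F0 WD replicates 1 and 4, chr15:102917756-102917816: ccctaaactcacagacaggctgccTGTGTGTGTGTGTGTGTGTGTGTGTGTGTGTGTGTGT
Without the extension of 5 kb no peak was left and the call was lost. The call was also lost when F0 WD replicate 1, 3 or 4 was left out (exact tests, unadjusted p = 0.083), which leaves 2 F0 WD libraries with a peak.

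**Figure D5:**
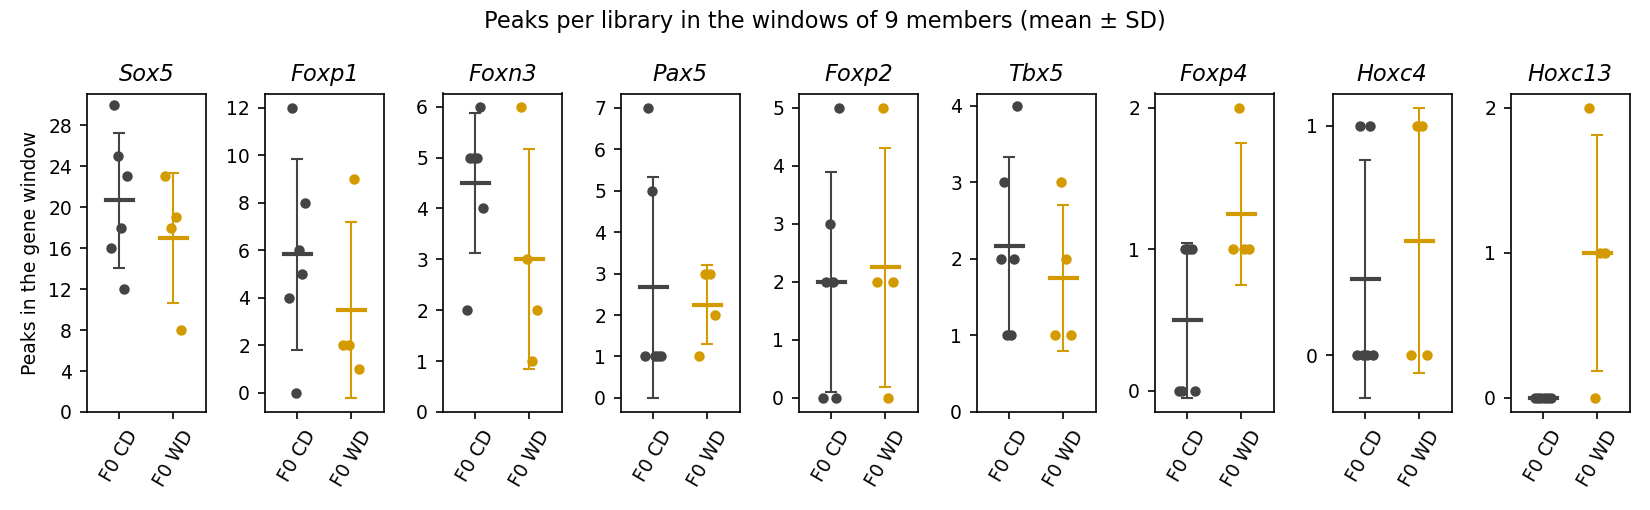
Peaks in the gene window per library for 9 members. Each point is 1 library, grey for F0 CD (n = 6) and gold for F0 WD (n = 4), with bars for the mean and SD. The vertical scale differs between panels. The groups overlap in each panel, and in Hoxc13 all F0 CD libraries and F0 WD replicate 2 are at 0.

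The other long members showed no call. Foxn3, a forkhead repressor, had 2, 5, 5, 5, 6 and 4 window peaks in F0 CD and 6, 3, 1 and 2 in F0 WD (exact permutation test, unadjusted p = 0.22). Pax5 had 1, 7, 5, 1, 1 and 1 in F0 CD and 1, 3, 3 and 2 in F0 WD, with 2 F0 CD libraries above all others. Tbx5 had 2, 3, 1, 1, 2 and 4 in F0 CD and 1, 3, 2 and 1 in F0 WD. Foxp2, a gene of speech and motor circuits, had none in F0 CD replicates 1 and 5 and F0 WD replicate 3 and 2 to 5 in the rest.

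Over consensus regions, 24763 were tested, of which 0.553% were called higher in F0 WD and 0.468% higher in F0 CD, and 0 after adjustment. Of the 85 member regions 0 were called in either direction, but 44 were found in 2 libraries and could not have been called. Both diets shared 53 of the 85, 28 were found in F0 CD libraries alone and 4 in F0 WD libraries alone (32.9% and 4.71%, against 21.9% and 5.29% of all consensus regions on chromosomes 1 to 19). The 6 F0 CD libraries give more chances of a region in one diet alone than the 4 F0 WD libraries. Of the 14 regions in promoter windows, 10 were in F0 CD alone and 4 in both, and 12 of the 14 rested on 2 libraries. Over the 2444 consensus regions in promoter windows of any protein-coding gene, 24.4% were in F0 CD alone and 6.06% in F0 WD alone, and over the 1241 of these found in 2 libraries 37.3% and 11.1%. The 14 are few. None was called, but the 10 in F0 CD alone were found in 2 or 3 libraries and could not have been. Fisher's exact test gives such regions an unadjusted p of 0.47 or 0.20.

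Genes of the same developmental programmes outside the 11 families were read in the same way. Of 37 other homeobox genes 8 had a promoter peak in at least 2 libraries, led by the intestinal factor Cdx1 in 5. The count was 1 of 17 helix-loop-helix genes, 1 of 15 signals with Wnt5a in 4 libraries, and 1 of 9 Polycomb subunits, which repress many of these promoters. Over all protein-coding genes, 19.6% had a promoter peak in at least 2 libraries. Only these 8, 1, 1 and 1 genes had enough promoter peaks to be tested, and 0 of them were called between the diets. Of all genes tested, 0.687% were called higher in F0 WD and 0.442% higher in F0 CD, so 0 calls among so few genes says little about them.

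Markers of cell types were read in the same way as a check of the label. Of 14 matched late spermatid and sperm genes 0 had a promoter peak in 2 libraries, with the protamine gene Prm1 in 1 library and Prm2 in none, so promoter peaks do not identify the cells. The count was 2 of 14 for the list of epididymal epithelium (Spink2 and Cldn3, with Cdh1 in 0 libraries). It was 2 of 9 for immune cells and 2 of 5 for testicular germ cells (Kit and Stra8). How specific each listed gene is for its cell type was not tested. The share over all protein-coding genes was 19.6%. The sperm list therefore had no gene to test, and of the 2 tested in each of the other lists 0 were called between the diets. These are too few genes to be read against the share of calls over all genes.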

How the data were processed

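ATAC-seq peak lists of 6 F0 CD and 4 F0 WD sperm libraries were used. Per the study's methods and the processing notes of the submitters, reads were trimmed (Trim Galore 0.6.10) and aligned to mm10 (Bowtie2 2.4.5). Several alignments per read were allowed, and those of quality under 5 were removed. Duplicates were removed (Picard 2.24.0), and fragments from 50 to 115 bp were kept. Peaks were called in each library (MACS2 2.2.7.1, q 0.05). How uniquely reads were placed in CA and TG repeats cannot be read from the peak lists. In the deposited lists the score is the authors' integer MACS2 score, the enrichment is a ratio (fold) over local background, and p and q are −log10 values in the deposited lists. They hold no read counts, so detection was compared and the authors' count model was not repeated.

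Distinct intervals overlapping a gene by at least 1 bp were counted. Promoter windows spanned 3 kb on each side of any GENCODE M21 start site, and windows extended gene bodies by 5 kb. Genes and regions with peaks in at least 2 libraries were tested across the whole table by Fisher's exact test or exact permutation (both two-sided), with calls at unadjusted p under 0.05 and the Benjamini-Hochberg adjustment over everything tested beside them. Reads at each summit were solved from the fold and Poisson p, and gave whole numbers for 100.0% of 182970 summits, within 0.001 of the −log10 p. Sequences came from the RefSeq GRCm38 reference, whose lower-case letters were taken as repeat-masked. Scripts were tested on simulated data.

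Members, gene lists and tests were chosen with earlier results of these data known. Named genes were the 12 members with promoter peaks in the most libraries, those past the threshold, the 6 with the most body peaks, the leading member of each family, the Hox clusters, and the 8 most frequent regions, and members without any peak were listed. A few of these items are not reported here. Genes named beyond these were chosen after their values were seen. Akap4, on chromosome X, was left out of the sperm list. Batches and cages were not known. Alternatives covered mid-p, the q threshold, windows, list length, number of libraries required, each library left out and a replicate block. Leaving out Sox5 was added after seeing the data. The analysis used samtools 1.23.1 and, under Python 3.11.15, scipy 1.17.1, numpy 2.4.6, pysam 0.24.0, pandas 2.3.3 and matplotlib 3.10.9.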

Additional observations from a re-analysis of the deposited data

Results flagged for a closer look

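In groups of 4 or 6 libraries, a library was picked out when its gap to the nearest other library exceeded Dixon's critical value. Of 67 groups examined 9 held such a library, and chance picks out about 1 in 20. That rate does not hold for small tied counts, and in 7 of the 9 cases the other libraries of the group were all equal, so the number of cases cannot be read against it. F0 CD replicate 5 had 6 distinct peaks in the Hox clusters, against 0 to 2 in the other F0 CD libraries. F0 WD replicate 3 had 9 peaks in the window of Foxp1, against 1 to 2 in the other F0 WD libraries, and 2 in that of Foxm1, where the others had 0. F0 WD replicate 2 had 2 peaks in the window of Foxp4, where the others had 1.

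The remaining cases rest on 1 peak in a single library of the group, the others being at 0. These were the Irx genes in F0 WD replicate 1, Sox9 in F0 WD replicate 4, Dlx3 in F0 CD replicate 5, and Gata2 in F0 CD replicate 3 and in F0 WD replicate 3.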

How the results depend on the processing

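The numbers of genes or regions called over the whole table were 46 for promoters, 81 for bodies, 150 for peak number and 253 for consensus regions. With mid-p they became 100, 186 and 539 for promoters, bodies and regions, and the balance turned to F0 CD, with 38 higher in F0 WD to 62 higher in F0 CD, 77 to 109 and 194 to 345. A promoter window of 1 kb left 16 promoter calls and the start site of the gene record alone 11, and peak numbers per 10000 peaks of the list gave 297 (215 higher in F0 WD, 82 higher in F0 CD). With lists cut to equal length the calls split 28 to 7, 54 to 33, 102 to 46 and 133 to 74 between F0 WD and F0 CD, against 28 to 18, 46 to 35, 83 to 67 and 137 to 116 before. Leaving out 1 library gave 38 to 83, 82 to 157, 105 to 249 and 239 to 460 calls, and each rise beyond 1.5 times came without an F0 CD library. The balance turned to F0 CD in 4 of these 10 fits for promoters, 6 for bodies, 4 for peak number and 7 for regions, so the direction of the calls over the whole table was not stable. The pattern needed for a call also changed with the group sizes. Detection in 4 F0 CD and 0 F0 WD libraries has an unadjusted p of 0.076 with all libraries (Fisher's exact test). Without 1 F0 CD library it has 0.048 and is called. The share higher in F0 WD ranged from 42.2% to 67.1%, 39.8% to 62.0%, 41.0% to 73.6% and 34.9% to 61.3%. Without each library in turn, F0 WD minus F0 CD was -3.17 to -0.15 members with a promoter peak (main -1.92) and -14.0 to -3.67 distinct member peaks (main -9.25, without Sox5 -5.58). With the start site of the gene record alone the first difference turned to 0.50, and with equal lists the 2 differences shrank to -1.08 and -1.75.

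Foxp1 was still called without any 1 library, but not with a promoter window of 1 kb (difference in the share of libraries -0.50) or the start site of the gene record alone (0). Hoxc13 was not called without the extension (0) or without F0 WD replicate 1, 3 or 4. Libraries with the same replicate number did not deviate together (correlations -0.0109 to 0.0356). A replicate block gave 0 calls in all 4 comparisons, since its smallest possible p is 0.125. Libraries whose weakest peaks need 9 to 13 reads limit what absence can show.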
